A study of Mus musculus with 84 samples.

Results

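The unfolded protein response and the chaperones of the endoplasmic reticulum (ER) are followed here through 32 named genes, which the deposited tables hold under 33 of 55471 gene IDs. The genes were taken by name. They comprise 6 stress sensors and transcription factors, 3 feedback regulators, 7 HSP70 or HSP90 chaperones and co-chaperones, 2 lectin chaperones, 4 protein disulfide isomerases, 2 small secreted or ER stress proteins, 6 genes of ER-associated degradation and 2 translocon subunits. Ddit3 has a second ID of 105 exonic bases with 0 reads in every bulk library, and its main ID is used throughout.

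Cells of the BALB/c small intestine labelled MMC9, mucosal mast cells that produce IL-9, were sequenced in bulk and singly. The 3 bulk libraries, 1 per genotype, are IL4RaY709F, which carries a gain-of-function IL-4 receptor alpha chain, IL4Ra-/-, which has lost that receptor's function, and WT. Per the study's design text, bone marrow progenitors of each genotype were given to WT mice sensitized to ovalbumin (OVA), the hosts then had 7 OVA challenges by mouth at 3 per week, and RNA of 12 to 20 biological replicates was pooled for each library. The single cells were 81 WT cells from mice sensitized with OVA and alum, and the gate took c-Kit+ ST2+ cells that were Lin- and IL-17RB2-, high for IL-4GFP and low for β7-integrin. The hosts keep their own WT cells, and how donor cells were told from host cells in the sort is not stated in the sources used here. The labels name no animal for the single cells, which are therefore 1 sample.

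The unfolded protein response senses misfolded protein in the ER through a trio of membrane proteins: IRE1 (Ern1), PERK (Eif2ak3) and ATF6. IRE1 splices the Xbp1 mRNA, PERK slows translation and favours that of Atf4, and ATF6 is cut in the Golgi to free a transcription factor; their outputs are chaperones, folding enzymes, degradation genes and, under lasting stress, Ddit3 (CHOP). Mast cells fill granules with proteases and other secretory cargo that folds in the ER, and plasma cells are the classic example of a cell that runs this programme at a high level to secrete antibody.

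The ER stress response element (ERSE) is the promoter sequence through which ATF6 and XBP1 are known to act on chaperone genes. It was searched on both strands, as CCAAT and CCACG with any 9 bases between them, in the RefSeq promoters of build GRCm38.p6, from 250 bases before to 50 bases after each start site. Promoters were matched for 27 of the 32 genes. Of these, 9 (33.3%) held an ERSE, against 39 of all 32851 promoters (0.119%). The first share counts genes, which have 28 promoters here, and the second counts promoters. The element is known from chaperone genes, so a higher share among these genes could be foreseen and is not a test. The 9 genes are Calr, Canx, Creld2, Derl3, Dnajc3, Hsp90b1, Hspa5, Pdia6 and Syvn1, and Hsp90b1 held the element at 2 places. The matches are shown to let the shared letters be compared, each read 5′ to 3′ on the strand that gives CCAAT first, with the fixed letters in capitals, 6 flanking bases on each side and GRCm38.p6 positions. The paired Hsp90b1 matches lie on opposite strands.
Calr (chr8:84847069-84847099, plus strand): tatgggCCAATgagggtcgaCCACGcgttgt
Canx (chr11:50325794-50325824, minus strand): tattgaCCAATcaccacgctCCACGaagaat
Creld2 (chr15:88819514-88819544, minus strand): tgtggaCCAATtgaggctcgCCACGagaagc
Derl3 (chr10:75893236-75893266, minus strand): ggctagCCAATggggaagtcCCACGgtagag
Dnajc3 (chr14:118937821-118937851, plus strand): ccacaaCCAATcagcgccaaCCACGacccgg
Hsp90b1 (match nearer the start site, chr10:86705527-86705557, plus strand): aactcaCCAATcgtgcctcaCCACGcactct
Hsp90b1 (match farther from the start site, chr10:86705632-86705662, minus strand): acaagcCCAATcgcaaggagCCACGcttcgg
Hspa5 (chr2:34772019-34772049, plus strand): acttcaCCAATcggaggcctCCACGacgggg
Pdia6 (chr12:17266485-17266515, plus strand): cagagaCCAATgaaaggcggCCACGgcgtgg
Syvn1 (chr19:6046526-6046556, plus strand): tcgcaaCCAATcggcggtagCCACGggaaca

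The related ERSE-II, ATTGG and CCACG with any 1 base between them and likewise on both strands, was present in the promoters of Herpud1 and Dnajb11 and in 12 of all 32851 promoters (0.0365%). The short XBP1 element TGACGTGG was in none of the 27 genes' promoters and in 222 of all promoters (0.676%). The ATF4 composite element TGATGNAAT was likewise in none, and in 317 of all promoters (0.965%). A missing match says only that these letters are not in these windows. The ERSE-II matches are given with 6 flanking bases, fixed letters in capitals.
Dnajb11 (chr16:22857846-22857868, plus strand): gcggcgATTGGcCCACGcctggc
Herpud1 (chr8:94386371-94386393, plus strand): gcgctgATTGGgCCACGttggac

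Hspa5 and Hsp90b1 encode BiP and GRP94, abundant chaperones of the ER lumen, and they differed between the mutants in opposite directions. Their 250 bases before the start site are therefore shown whole on the gene's strand, with ERSE matches in capitals. The Hspa5 stretch is chr2:34771840-34772089 on the plus strand, and the Hsp90b1 stretch is chr10:86705445-86705694 on the minus strand, in GRCm38.p6.
Hspa5: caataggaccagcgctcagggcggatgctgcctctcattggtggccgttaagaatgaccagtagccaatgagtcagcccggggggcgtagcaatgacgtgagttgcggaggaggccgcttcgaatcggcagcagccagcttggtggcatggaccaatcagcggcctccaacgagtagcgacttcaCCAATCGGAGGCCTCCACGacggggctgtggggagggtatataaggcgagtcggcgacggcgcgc
Hsp90b1: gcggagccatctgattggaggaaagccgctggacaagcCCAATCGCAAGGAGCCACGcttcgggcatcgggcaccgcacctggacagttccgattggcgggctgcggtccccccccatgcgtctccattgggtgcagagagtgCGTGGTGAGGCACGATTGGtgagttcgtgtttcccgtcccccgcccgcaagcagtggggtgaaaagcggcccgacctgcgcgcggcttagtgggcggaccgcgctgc

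The bulk libraries held 2521791 (IL4RaY709F), 2330628 (IL4Ra-/-) and 2299793 (WT) reads in genes. Il4ra, the targeted gene, had 1831 reads in IL4RaY709F, 350 in IL4Ra-/- and 806 in WT, and which part of it the knockout lacks is not stated in the sources used here. All 14 mast cell markers had at least 50 reads in a bulk library, with summed levels of 97062 CPM (reads of a gene relative to the scaled library total) in IL4RaY709F, 64322 CPM in IL4Ra-/- and 67799 CPM in WT. Markers of other cells differed between the libraries. The 14 plasma cell or B cell markers summed to 3046 CPM in IL4RaY709F, 13449 CPM in IL4Ra-/- and 6606 CPM in WT. The 10 macrophage markers summed to 73.5 CPM in IL4RaY709F, 459 CPM in IL4Ra-/- and 143 CPM in WT, and the 8 dendritic cell markers to 257 CPM in IL4RaY709F, 781 CPM in IL4Ra-/- and 301 CPM in WT. The 14 epithelial markers summed to 31.4 CPM in IL4RaY709F, 118 CPM in IL4Ra-/- and 31.1 CPM in WT, and the 8 proliferation markers to 293 CPM in IL4RaY709F, 544 CPM in IL4Ra-/- and 297 CPM in WT. The 8 T cell markers summed to 203 CPM in IL4RaY709F, 281 CPM in IL4Ra-/- and 161 CPM in WT, and the 8 stromal or endothelial markers to 375 CPM in IL4RaY709F, 214 CPM in IL4Ra-/- and 224 CPM in WT. All of these sums but the last were highest in IL4Ra-/-. The last rests mostly on Pecam1, detected at 10 reads in 45 of the 80 single WT cells kept. The other 7 stromal or endothelial markers, each detected in under 5% of those cells, had 9 reads in IL4RaY709F, 42 in IL4Ra-/- and 15 in WT. The 6 T cell markers that were as rare had 6 reads in IL4RaY709F, 31 in IL4Ra-/- and 12 in WT. The part of these marker sums in the differences described next was not tested. In bulk RNA, fewer cells of a type and less RNA per cell cannot be told apart.

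Of the 81 single cells, 80 had at least 10000 gene reads and were kept. Among these, 2 stood apart from the mast cell label. In cell 46, plasma cell or B cell markers held 65.6% of the reads and mast cell markers 0.0199%. In cell 37, plasma cell or B cell markers held 41.2% and mast cell markers 0.0984%. The other 78 cells had at most 0.131% of their reads in plasma cell or B cell markers (median 0.00203%) and a median of 6.78% in mast cell markers (lowest 0.150%). The next lowest cells in mast cell markers were cell 2, with 1503 CPM beside 943 CPM of macrophage and 692 CPM of T cell markers, and cell 79, with 1536 CPM and 90.8% mitochondrial reads, against 984 CPM in cell 37. Mzb1, an ER protein of antibody-secreting cells, had 627 reads in cell 46, 0 in cell 37 and at most 1 in the others. Igha had 705456 reads in cell 46, 124693 in cell 37 and at most 726 in the others. These 2 cells were kept, and values without them are given wherever a result rests on them. Apart from these, 8 cells had over 30% of their reads in mitochondrial genes.

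The first question is how strongly these genes were expressed in MMC9s. Levels are compared between genes as CPM per kilobase of exon (RPKM). Hspa5, the HSP70 chaperone that also holds the stress sensors inactive, stood at 626 RPKM in IL4RaY709F, 485 RPKM in IL4Ra-/- and 557 RPKM in WT, the highest of the 32 genes in each library. Next in WT came Ppp1r15a (GADD34), the phosphatase subunit that reverses PERK's translation block, at 470 RPKM, and Atf4 at 356 RPKM. P4hb, a protein disulfide isomerase, stood at 247 RPKM and Calr (calreticulin), a lectin chaperone, at 202 RPKM in WT. The stress sensors themselves were low: in WT, Atf6 was at 20.2 RPKM, Ern1 at 11 RPKM and Eif2ak3 at 3.12 RPKM. At the bottom were Derl3, a degradation factor, with 2 reads in IL4RaY709F, 17 in IL4Ra-/- and 9 in WT, and Trib3, an inhibitor of ATF4 signalling, with 5 reads in IL4RaY709F, 3 in IL4Ra-/- and 1 in WT. These were the 2 genes under 50 reads in every library, and no fold is given for them.

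**Figure D1:**
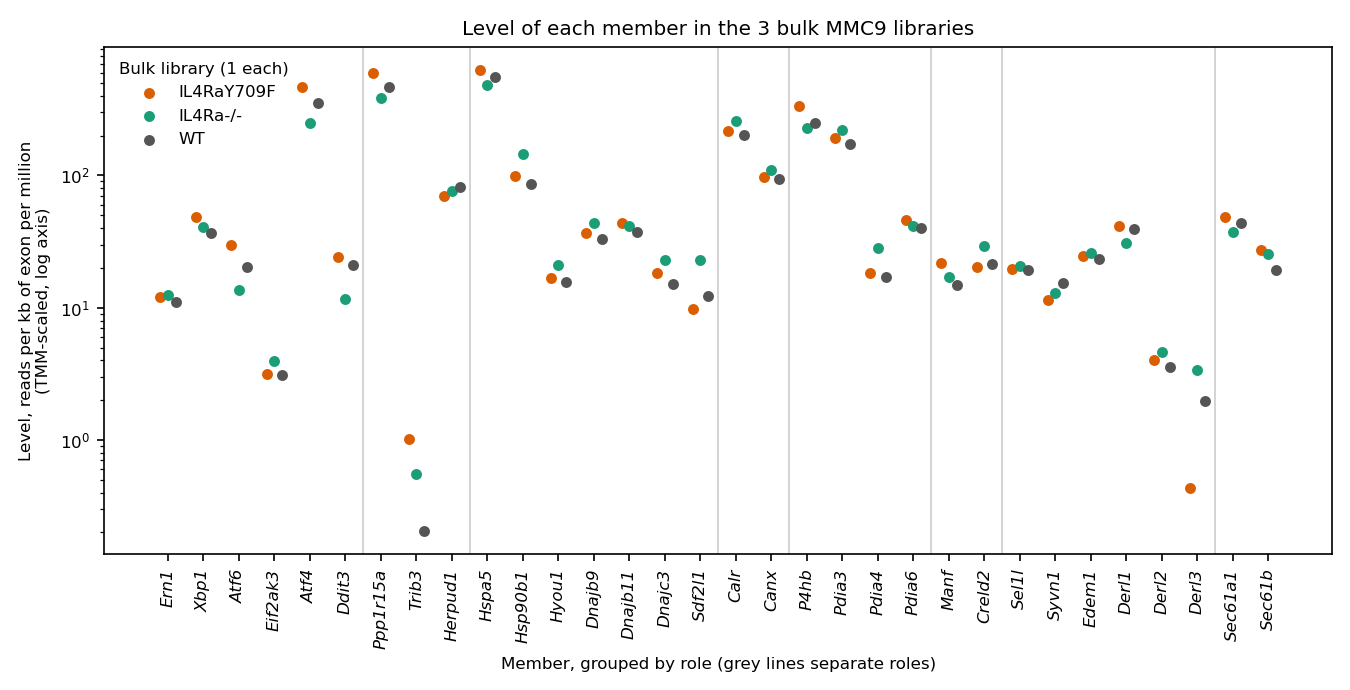
Level of each of the 32 genes in the 3 bulk libraries, in RPKM on a log axis, with 1 point per library (IL4RaY709F, IL4Ra-/- and WT from left to right for each gene). Hspa5 is highest in all 3 libraries (626 RPKM in IL4RaY709F, 485 RPKM in IL4Ra-/- and 557 RPKM in WT) and Trib3 and Derl3 are lowest.

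The 32 genes together held 1.01% of gene reads in IL4RaY709F, 1.01% in IL4Ra-/- and 0.933% in WT. After scaling, their sum in IL4RaY709F was 1.17 times that in WT (95% counting interval 1.15 to 1.19), and in IL4Ra-/- 0.986 times that in WT (0.968 to 1.0). The IL4Ra-/- sum thus differed from WT by less than its counting interval. Genes within it went opposite ways. There was 1 library per genotype, so no difference described here has a replicate check. Both comparisons with WT use the same WT library. Intervals cover counting error alone.

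Against WT, 3 of the 5 sensors and transcription factors tested had an interval above 1 in IL4RaY709F: Atf6, Atf4 and Xbp1. Atf6, the sensor that becomes a transcription factor, had 641 reads in IL4RaY709F, 317 in IL4Ra-/- and 426 in WT. Its log2 ratio of IL4RaY709F over WT was 0.56 (0.39 to 0.74), the highest of the 28 genes with at least 50 reads in the larger library (Eif2ak3 and Sdf2l1 fell under that minimum in this comparison). Atf4, the transcription factor translated under PERK signalling, had 2548 reads in IL4RaY709F, 1488 in IL4Ra-/- and 1916 in WT, a log2 ratio over WT of 0.39 (0.30 to 0.47). Xbp1, the target of IRE1, had 365 reads in IL4RaY709F, 339 in IL4Ra-/- and 274 in WT, a log2 ratio of IL4RaY709F over WT of 0.39 (0.16 to 0.62); spliced and unspliced forms are not separated in gene counts. Ern1, at 0.13 (-0.14 to 0.41), and Ddit3, at 0.22 (-0.22 to 0.66), had intervals that included 1. Of the feedback regulators, Ppp1r15a had 4088 reads in IL4RaY709F, 2894 in IL4Ra-/- and 3153 in WT, a log2 ratio of 0.35 (0.28 to 0.42). Atf6, Atf4 and Ppp1r15a were each highest in IL4RaY709F and lowest in IL4Ra-/-.

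In IL4RaY709F over WT, all tested chaperones and disulfide isomerases had log2 ratios above 0 with the main scaling, several with intervals that included it. Genes of degradation lay on both sides. P4hb had 2241 reads in IL4RaY709F, 1673 in IL4Ra-/- and 1618 in WT, a log2 ratio over WT of 0.44 (0.35 to 0.54). Manf, a small secreted ER stress protein, had 178 reads in IL4RaY709F, 152 in IL4Ra-/- and 119 in WT, a log2 ratio of 0.56 (0.21 to 0.90). Its annotated span overlaps Rbm15b on the same strand and Dcaf1 on the opposite strand. Hspa5 had 6161 reads in IL4RaY709F, 5215 in IL4Ra-/- and 5388 in WT, a log2 ratio of 0.17 (0.12 to 0.22). Hsp90b1, Calr and Pdia3, a disulfide isomerase that works with calreticulin, had log2 ratios of 0.20, 0.11 and 0.15, each with an interval above 0. On the low side were Syvn1 (HRD1), the ubiquitin ligase of ER-associated degradation, with 129 reads in IL4RaY709F, 159 in IL4Ra-/- and 172 in WT and a log2 ratio of -0.44 (-0.78 to -0.10), and Herpud1, a degradation adaptor induced by ER stress, at -0.22 (-0.42 to -0.01).

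Read by counts, 10 of the 28 genes had an interval above a ratio of 1 in IL4RaY709F, against 18.1% of all 5964 genes tested. An interval below 1 was found for 2, against 13.6% of all genes. The size rule asked for 50 reads in the larger library, a 2-fold ratio and an interval excluding 1. None of the 28 passed it, against 1.68% of all genes in the higher and 0.771% in the lower direction, and none passed at 1.5-fold (6.15% and 3.55% of all genes). The median log2 ratio was 0.16 over the 28 genes and 0.02 over all genes. Scaling by total gene reads in place of the trimmed mean of M-values (TMM) shifts every log2 ratio of IL4RaY709F over WT by -0.11. With it, 7 of the 10 kept an interval above 1, and Pdia3, Hsp90b1 and Calr did not; over all genes the shares were then 11.3% above and 22.6% below.

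In IL4Ra-/-, genes were found on both sides of WT. Of the 7 HSP70 and HSP90 chaperones and co-chaperones, 5 had an interval above 1 and 1, Hspa5, below; of the 4 disulfide isomerases, 2 were above and 1, P4hb, below; and both lectin chaperones were above. Hsp90b1 had 1488 reads in IL4Ra-/- and 796 in WT, a log2 ratio of 0.75 (0.62 to 0.87), while IL4RaY709F had 928. Pdia4, a disulfide isomerase, had 173 reads in IL4Ra-/- and 93 in WT, a log2 ratio of 0.74 (0.37 to 1.12). Dnajc3 (p58IPK), a co-chaperone that also restrains PERK, had 300 reads in IL4Ra-/- and 179 in WT, a log2 ratio of 0.59 (0.32 to 0.87). Sdf2l1, a partner of the HSP70 cycle, had 65 reads in IL4Ra-/- and 31 in WT, a log2 ratio of 0.91 (0.28 to 1.58), and 25 reads in IL4RaY709F. Hyou1 (GRP170), the nucleotide exchange factor of Hspa5, had 388 reads in IL4Ra-/- and 258 in WT, a log2 ratio of 0.43 (0.20 to 0.67). Dnajb9, a co-chaperone that represses IRE1, had a log2 ratio of 0.40 (0.13 to 0.67), Calr one of 0.36 (0.26 to 0.47), Pdia3 one of 0.34 (0.24 to 0.45) and Canx, the membrane-bound lectin chaperone, one of 0.23 (0.11 to 0.35).

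Hspa5 went the other way. Its log2 ratio of IL4Ra-/- over WT was -0.20 (-0.26 to -0.15). The ratio of Hsp90b1 to Hspa5 reads, which no scaling of the libraries can alter, was 0.151 in IL4RaY709F, 0.285 in IL4Ra-/- and 0.148 in WT. It was highest in IL4Ra-/- and alike in IL4RaY709F and WT.

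Ddit3, Atf6, Atf4 and Ppp1r15a were among the genes that were lower in IL4Ra-/-. Ddit3 had 97 reads in IL4RaY709F, 51 in IL4Ra-/- and 82 in WT, a log2 ratio of IL4Ra-/- over WT of -0.84 (-1.37 to -0.32). Ddit3 overlaps Mars on the opposite strand, and the strand setting of the counting is not stated in the sources used here. Atf6 had a log2 ratio of -0.58 (-0.79 to -0.37), Atf4 one of -0.52 (-0.62 to -0.42) and Ppp1r15a one of -0.28 (-0.35 to -0.20). Derl1, a channel protein of ER-associated degradation, was at -0.33 (-0.58 to -0.09) and Sec61a1, the pore of the translocon, at -0.23 (-0.39 to -0.07). P4hb was at -0.11 (-0.21 to -0.01) and turned to 0.03 with total read scaling. For the other sensors and Xbp1 the interval included 1 with TMM, while Ern1 and Xbp1 had one above 1 with total read scaling. Ern1 had 260 reads in IL4Ra-/- and 205 in WT (log2 ratio 0.19, -0.08 to 0.46), Xbp1 was at 0.15 (-0.08 to 0.39), and Eif2ak3, with 61 reads in IL4Ra-/- and 43 in WT, at 0.35 (-0.24 to 0.95).

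Of 30 genes tested, 9 had an interval above 1 in IL4Ra-/- against WT and 8 below, against 12.6% and 27.4% of all 6246 genes. None passed the 2-fold size rule, against 2.43% of all genes higher and 1.30% lower. At 1.5-fold, Pdia4, Hsp90b1, Dnajc3 and Sdf2l1 were higher (6.52% of all genes) and Ddit3 was lower (8.85% of all genes). The median log2 ratio was 0.18 over the 30 genes and -0.08 over all genes. By role, the 7 HSP70 and HSP90 chaperones and co-chaperones had a median of 0.43 and the 6 sensors and transcription factors one of -0.18. Total read scaling adds 0.13 to each log2 ratio; Hspa5, Atf6, Atf4, Ddit3 and Ppp1r15a then still had intervals below 1, and 17 of the 30 genes had one above, against 17.2% of all genes below and 22.8% above with that scaling. With it Sdf2l1 passed the 2-fold size rule at 1.05.

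The mutants were also set directly against each other, and the shares of genes called in the higher direction were near those of all genes. Atf6 was at a log2 ratio of IL4RaY709F over IL4Ra-/- of 1.14 (0.95 to 1.34), and Ddit3 at 1.06 (0.55 to 1.57). Both passed the 2-fold size rule, as 4.62% of all 6319 genes did in that direction. Sdf2l1 passed it in the lower direction at -1.25 (-1.98 to -0.56), as 3.50% of all genes did. Atf4 followed at 0.90 (0.81 to 1.0), Ppp1r15a at 0.63 (0.56 to 0.70) and P4hb at 0.55 (0.46 to 0.64) on the high side. At 1.5-fold, Atf4 and Ppp1r15a joined the higher ones (14.6% of all genes) and Pdia4 the lower one (8.36% of all genes). Pdia4 at -0.63 (-1.0 to -0.27), Hsp90b1 at -0.55 (-0.67 to -0.43) and Creld2, a small ER stress protein, at -0.53 (-1.0 to -0.06) were on the low side. In all, 10 of the 30 genes had an interval above 1 (30.1% of all genes) and 9 below (16.6%). The median was -0.08 over the 30 genes and 0.09 over all genes. With total read scaling, which shifts this comparison by -0.24, Atf6 (0.90) and Ddit3 (0.81) were under 2-fold and Xbp1, at 0.24 with TMM, came to -0.01.

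**Figure D2:**
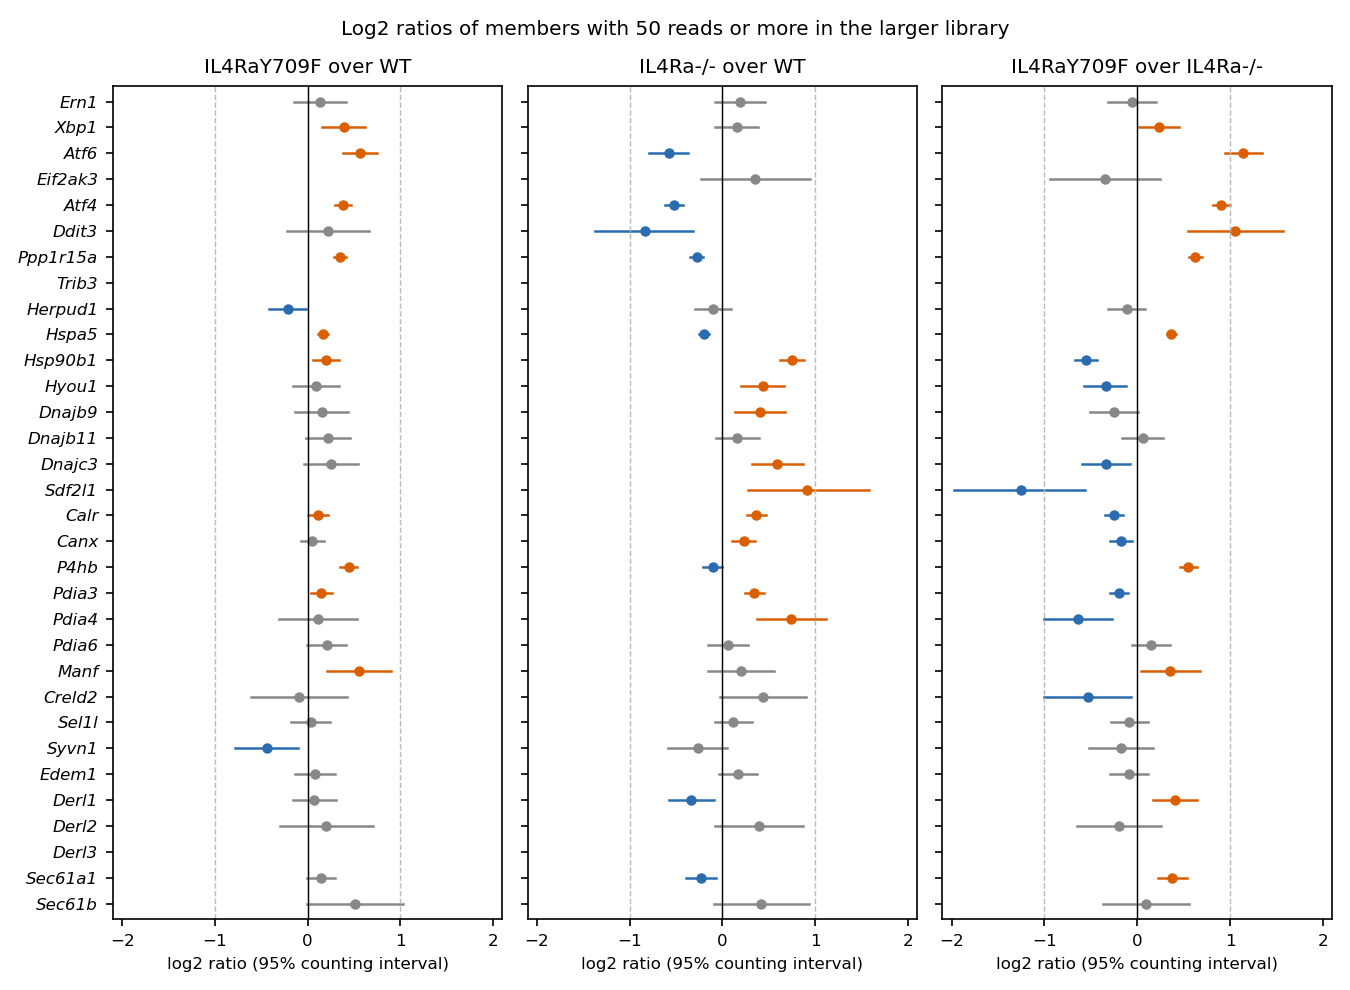
Log2 ratio of each gene between libraries with its 95% counting interval, for IL4RaY709F over WT, IL4Ra-/- over WT and IL4RaY709F over IL4Ra-/- (left to right); orange intervals lie above 0, blue ones below, grey ones include it, dashed lines mark 2-fold, and genes under 50 reads are left blank. Atf6, Atf4, Ddit3 and Ppp1r15a are lower in IL4Ra-/- than in WT while Hsp90b1, Pdia4, Dnajc3 and Sdf2l1 are higher.

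For the remaining genes every interval against WT included 1 with TMM. These were Ern1, Eif2ak3, Dnajb11, a co-chaperone of Hspa5, Pdia6, a disulfide isomerase that acts on IRE1, Creld2, Sel1l, the partner of HRD1, Edem1, a lectin that hands glycoproteins to degradation, Derl2 and Sec61b, a translocon subunit. With total read scaling, Ern1, Dnajb11, Creld2, Sel1l, Edem1, Derl2 and Sec61b had intervals above 1 in IL4Ra-/- over WT. Of 5 degradation genes with enough reads, 1 in each comparison with WT had an interval apart from 1 with TMM. These were Syvn1 in IL4RaY709F and Derl1 in IL4Ra-/-, both below, and the Derl1 interval included 1 with total read scaling.

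Genes with an ERSE spanned both directions. The 8 with enough reads had log2 ratios of IL4RaY709F over WT between -0.44 and 0.25 (median 0.14), and the 15 genes with a promoter but no ERSE had a median of 0.20. In IL4Ra-/- over WT the 8 ranged from -0.27 (Syvn1) to 0.75 (Hsp90b1), with a median of 0.30, and the 17 without an ERSE had a median of 0.17. Hspa5, whose promoter is printed above, and Hsp90b1 both carry the element and stood on opposite sides of WT in IL4Ra-/-. Sdf2l1 and Pdia4 had no ERSE match and were among the highest there.

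Beyond the 32 genes, wider lists of ER and stress genes were read for context. Their counts of intervals above and below 1 stand beside 18.1% and 13.6% of all genes in IL4RaY709F over WT. In IL4Ra-/- over WT the shares of all genes were 12.6% and 27.4%. These shares are not matched for read depth, and no difference between a list and all genes was tested. Of 17 genes of the integrated stress response and ATF4 targets, 3 had an interval above 1 in IL4RaY709F over WT and 3 below; in IL4Ra-/- over WT, 0 of 17 were above and 7 below. Stc2, a secreted glycoprotein induced by PERK signalling, had 69 reads in IL4RaY709F, 5 in IL4Ra-/- and 17 in WT. Its log2 ratio was 2.0 (1.21 to 2.85) in IL4RaY709F over WT and 3.92 (2.62 to 5.58) over IL4Ra-/-. Ddit4, a stress-induced inhibitor of mTORC1, had 63 reads in IL4RaY709F, 93 in IL4Ra-/- and 124 in WT, a log2 ratio of -1.0 (-1.46 to -0.55) in IL4RaY709F over WT. Cebpb (-0.62) and Psat1 (0.54) were the lowest and highest of the list in IL4Ra-/- over WT, and Psat1 (-0.75) was lowest between the mutants.

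Among 18 other chaperones and folding enzymes, 3 were above and 5 below in IL4Ra-/- over WT, and of 17 tested in IL4RaY709F over WT 4 were above and 0 below. Txndc5, a disulfide isomerase abundant in plasma cells, had 85 reads in IL4RaY709F, 249 in IL4Ra-/- and 89 in WT. Its log2 ratio of IL4Ra-/- over WT was 1.33 (0.98 to 1.70). Ero1l, the oxidase that recharges disulfide isomerases, had 4566 reads in IL4RaY709F, 2978 in IL4Ra-/- and 3139 in WT, a log2 ratio of 0.52 (0.45 to 0.58) in IL4RaY709F over WT and -0.23 (-0.30 to -0.16) in IL4Ra-/- over WT. Cnpy2 was lowest in IL4RaY709F over WT at -0.34, and Mydgf in IL4Ra-/- over WT at -0.53. Between the mutants, Txndc5 at -1.42 was lowest and Ppib, a prolyl isomerase, highest at 0.80. Of 19 further translocon and signal peptidase genes, 7 were above and 0 below in IL4RaY709F over WT, and 3 above and 2 below in IL4Ra-/- over WT. Sec11c, a catalytic subunit of the signal peptidase, led them at 0.55 (0.38 to 0.71), and in IL4Ra-/- over WT it was at -0.39 (-0.58 to -0.20). In that comparison Sec61g was lowest at -0.50 and Spcs3 highest at 0.39. Between the mutants Sec11c was highest at 0.94 and Spcs3 lowest at -0.33, and Sec63, at -0.07, was lowest in IL4RaY709F over WT.

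In the glycosylation list, 3 of 15 genes were above and 2 below in IL4RaY709F over WT, and 3 of 14 above and 2 below in IL4Ra-/- over WT. Ost4, a small subunit of the oligosaccharyltransferase, had 60 reads in IL4RaY709F, 22 in IL4Ra-/- and 38 in WT, a log2 ratio of 1.58 (0.85 to 2.35) in IL4RaY709F over IL4Ra-/-. Ost4 (0.63) and Gfpt1 (-0.32) were highest and lowest in IL4RaY709F over WT, Alg5 (0.39) and Krtcap2 (-0.71) in IL4Ra-/- over WT, and Gfpt1 (-0.71) was lowest between the mutants. Of 16 further degradation genes, 4 were above and 1 below in IL4RaY709F over WT, where Selenos was highest at 0.54 and Edem3 lowest at -0.53, and 2 above and 3 below in IL4Ra-/- over WT, where Edem2 was highest at 0.69. Between the mutants Edem3 was lowest at -0.62. ER to Golgi transport gave 3 above and 0 below of 17 in IL4RaY709F over WT and 3 above and 3 below of 18 in IL4Ra-/- over WT. Its highest and lowest genes were Sec13 (0.38) and Sar1b (-0.20) in IL4RaY709F over WT, Sec23a (0.73) and Tmed2 (-0.65) in IL4Ra-/- over WT, and Tmed2 (0.61) and Lman1 (-0.52) between the mutants. The 11 other stress sensors gave 3 above and 3 below in IL4RaY709F over WT and 0 above and 3 below in IL4Ra-/- over WT. Creb3 (0.37) and Traf2 (-0.41) bounded them in IL4RaY709F over WT, Eif2s1 (0.12) and Traf2 (-0.51) in IL4Ra-/- over WT, and Rtcb (0.55) and Mbtps1 (-0.38) between the mutants. Values between the mutants are IL4RaY709F over IL4Ra-/- throughout.

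The single cells show which of these genes are read in individual WT MMC9s. Detection in a cell required 10 reads. By this measure 12 of the 32 genes were detected in at least 50% of the 80 cells, as were 9.88% of the 14445 genes detected in any cell. Hspa5 was detected in 78 of 80 cells (97.5%, exact 95% interval 91.3% to 99.7%), with a median of 931 CPM and a highest value of 5328 CPM. Canx was detected in 72 cells (90%), Ppp1r15a in 67 (83.8%), Hsp90b1 in 65 (81.2%), Sec61a1 in 62 (77.5%), and P4hb and Pdia3 in 61 each (76.2%). Herpud1 followed in 58, Atf4 in 54, Calr in 51, Sec61b in 48 and Pdia6 in 47 cells. Thus the most widely detected genes included Hspa5, the lectin chaperones, the leading isomerases and the PERK-side genes Atf4 and Ppp1r15a.

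The sensors were detected in fewer cells than the 12 genes above. Atf6 was detected in 25 cells (31.25%), Ern1 in 15 (18.75%) and Eif2ak3 in 4 (5%), and Ddit3 in 17 (21.25%). The median over the 14445 genes detected in any cell was 8.75% of cells. At least 1 read was found for Atf6 in 54 cells, for Ern1 in 38 and for Eif2ak3 in 9. Trib3 was detected in 0 of 80 cells, which allows a share of up to 4.51% of cells with 10 reads. Xbp1 was detected in 38 cells, with a median of 10 CPM and a highest value of 620 CPM. Transcript length and depth limit such shares, and a gene under 10 reads is not shown to be absent.

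Some genes had a large share of their reads in a single cell. The highest cell held 51.2% of all Hyou1 reads. For Eif2ak3 it held 32.9%, of only 70 reads over all 80 cells. For Hspa5 the highest cell held 5.31% and for Ppp1r15a 4.85%. The summed genes took between 0.0272% and 2.05% of a cell's reads (median 0.713%). Across the 80 cells this share had a rank correlation of 0.40 with gene reads and of -0.36 with the mitochondrial share, so depth and cell quality move with it and their part was not tested.

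The 2 antibody-rich cells had several of these genes at levels that few or none of the others reached. Their summed shares lay within the range of the others. The summed genes took 1.41% of gene reads in cell 46 and 0.745% in cell 37. The 78 others had a median of 0.699% and a highest share of 2.05%, and cells 14, 8, 59 and 48 exceeded cell 46. How many genes were at their highest in each of the other cells was not counted. Cell 46 was the only cell with any Derl3 read, 258 of them (138 CPM), so Derl3 was at 0 reads in all 78 others, which allows up to 4.62% of cells with 10 reads. Cell 46 also had the highest Hsp90b1 level, 3071 CPM against a median of 188 CPM in the 78 others, and the highest Edem1 level, 1353 CPM against a median of 0. Its Xbp1 level was 534 CPM, which 1 of the 78 others exceeded, and its Dnajb9 level was 588 CPM, exceeded in 2. On the other side, cell 46 had 3 reads of Atf4, 29 of Ppp1r15a and 0 of Sel1l. Atf4 was at 1.61 CPM in cell 46, against a median of 77.3 CPM in the 78 others, and Ppp1r15a at 15.5 CPM in cell 46, against a median of 544 CPM in the others.

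Cell 37 was high in a pair of isomerases, Pdia6 at 4259 CPM, exceeded in 1 of the 78 others, and Pdia4 at 2259 CPM, exceeded in none. It had 401 reads of Hsp90b1 and 31 of Hspa5, and 6 of the 32 genes reached 10 reads in it, against 25 in cell 46. Cell 37 had 523154 gene reads with 36.2% in mitochondrial genes, and cell 46 had 1864955 with 2.36%. Hsp90b1 reads outnumbered Hspa5 reads in both antibody-rich cells, with ratios of 1.82 in cell 46 and 12.9 in cell 37, and in 17 of the 78 others, whose summed ratio was 0.346.

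Hsp90b1, Pdia4, Dnajb9, Sdf2l1 and Hyou1, high in cell 46, are among the genes that were higher in the IL4Ra-/- bulk library, and Atf4 and Ppp1r15a, low in cell 46, are among those that were lower there. The plasma cell or B cell marker sum was also highest in that library, as given above. Other genes ran in parallel less clearly or not at all. Xbp1, Edem1, Herpud1, Dnajb11, Creld2, Syvn1 and Pdia6 were each at a level in cell 46 that 10 or fewer of the 78 others reached. Their intervals in IL4Ra-/- against WT included 1 with TMM, which leaves their direction open, and Creld2 was at 0.44 (-0.02 to 0.91). With total read scaling, Xbp1, Edem1, Dnajb11 and Creld2 had intervals above 1, and Herpud1, Syvn1 and Pdia6 did not. P4hb was at 984 CPM in cell 46, against a median of 184 CPM in the others, and Hspa5 at 1692 CPM, against a median of 931 CPM. Both were lower in IL4Ra-/- than in WT, P4hb with TMM but not with total read scaling. Ddit3, with 50.4 CPM in cell 46 exceeded in 7 of the 78 others, was lower in IL4Ra-/- too. Pdia3 was at 89.0 CPM in cell 46, against a median of 346 CPM in the others, and was higher in IL4Ra-/- than in WT. Canx, also higher in IL4Ra-/-, was at a level in cell 46 that 35 of the 78 others reached. Whether such cells bear on the bulk differences was not tested.

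**Figure D3:**
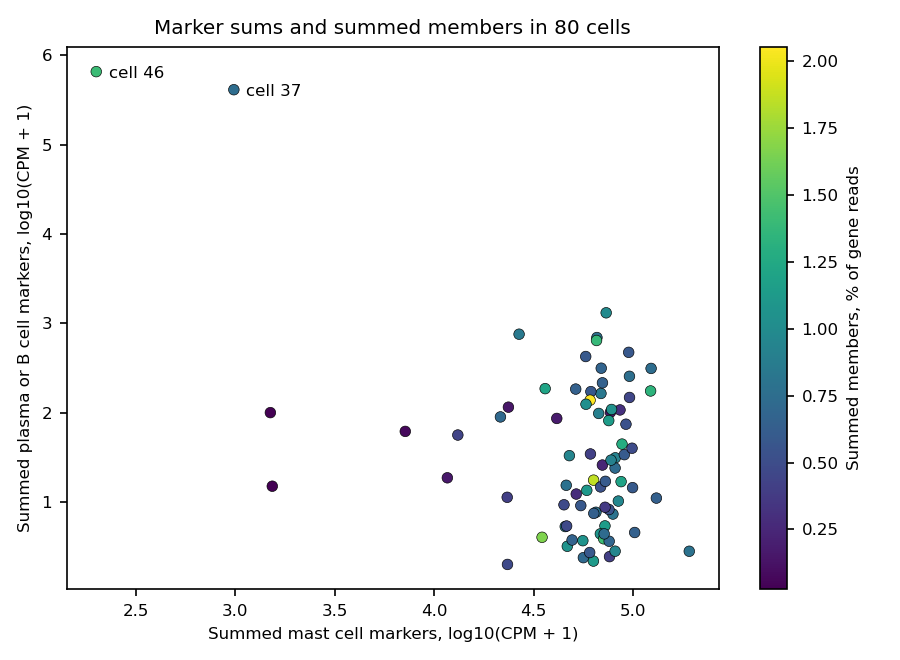
Each point is 1 of the 80 single cells, placed by its summed mast cell markers (x) and summed plasma cell or B cell markers (y), both as log10(CPM + 1), and coloured by the share of its gene reads in the 32 genes. Cells 46 and 37 sit alone at the upper left with 65.6% and 41.2% of reads in plasma cell or B cell markers.

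**Figure D4:**
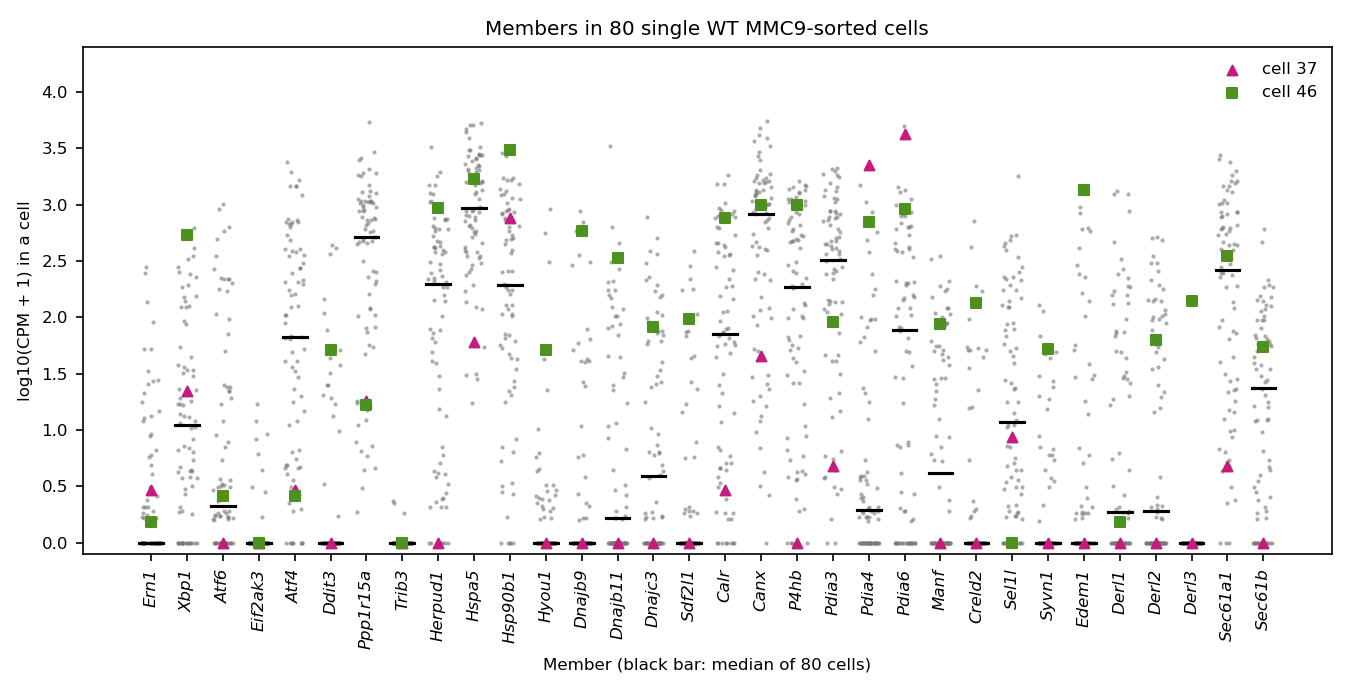
Level of each gene in each of the 80 single cells as log10(CPM + 1); grey points are 78 cells, the triangle is cell 37, the square is cell 46, and black bars are medians of all 80. Derl3 is above 0 in cell 46 alone, and Hsp90b1 and Edem1 are at their highest there.

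Without the 2 antibody-rich cells, 12 genes were again detected in at least 50% of cells; Hspa5 was in 76 of 78 and Hsp90b1 in 63. Over the 12 genes and 80 cells, the 66 pairs had a median rank correlation of 0.21, against 0.14 over all pairs of the 1427 genes detected in at least 50% of cells. Without those cells the median was 0.21 over 12 genes. Leaving out the cells high in mitochondrial reads as well gave 0.14 over 14 genes. The median over all gene pairs was computed for the 80 cells only, so the medians in fewer cells have no such value beside them. The pairs share cells, libraries and depth, and values of this size in sparse counts are given as a description. The closest pairs were Hsp90b1 with Calr (0.39), Hsp90b1 with Pdia3 (0.39), Calr with Sec61b (0.38), Pdia3 with Sec61b (0.38) and Herpud1 with Hspa5 (0.36). Pdia3 had the highest median correlation with the other 11 genes, 0.31, and Ppp1r15a the lowest, 0.09.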

How the data were processed

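The submitters' processing notes list HISAT, featureCounts and Subread 2.0.0. The authors deposited raw read counts per gene for the bulk libraries and the single cells, with no normalization. The notes name the builds GRCm38 and mm9; gene positions in the deposited tables matched GENCODE M21 (GRCm38) for 54851 of 55144 shared IDs and for all 33 member IDs. How strand was set in counting is not stated in the sources used here. Of the genes, 15 overlap another annotated gene, and 7 of these overlap a protein-coding one, Manf, Syvn1 and Ddit3 among them.

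Bulk counts were scaled with TMM (edgeR 4.0.16; Python 3.11.15, scipy 1.17.1). With 1 library per genotype no p-value was computed: log2 ratios carry exact conditional binomial (Clopper-Pearson) 95% intervals, and the size rule needs 50 reads in the larger library, 2-fold and an interval excluding 1. The ratio step was tested on simulated data. Cells were kept at 10000 gene reads, and doublets were not called. Counts per cell were scaled to CPM of gene reads, with Spearman correlations. Alternatives covered scaling (total reads, DESeq2 1.42.0 size factors, TMM without immunoglobulin genes), read minimum, fold, detection and cell filters. The genes, lists and rules were chosen with earlier results of these data known. All 32 genes are accounted for. Genes of wider lists are named where they passed the size rule in a comparison or were a list's highest or lowest there. A gene of the wider degradation list is not reported here.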

Additional observations from a re-analysis of the deposited data

How the results depend on the processing

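DESeq2 size factors and TMM without immunoglobulin genes left all 88 log2 ratios of single genes close to their values. Scaling by total gene reads changed the most: 1 gene passed the 2-fold size rule in IL4Ra-/- over WT and 1 between the mutants, and the median log2 ratio between the mutants came to -0.33. It left 56 of the 88 ratios in place and moved 29 beyond their counting error, took 2 under 2-fold and 1 over it. A minimum of 200 reads left 1 gene past the size rule between the mutants, by construction of the higher minimum. A 1.5-fold rule gave 5 genes in IL4Ra-/- over WT and 6 between the mutants. Calling a gene detected at 1 read gave 21 genes in at least 50% of cells, against 12 at 10 reads. Leaving out antibody-rich cells, and also cells over 30% mitochondrial reads, was chosen after seeing the data and gave 12 and 14 genes. No paired analysis was possible because each genotype has 1 library. Depth limits the weakest genes: beside Trib3 and Derl3, Sdf2l1, Ddit3, Eif2ak3, Derl2 and Sec61b have under 100 reads in each library. Pooled RNA gives no spread between animals.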

Other observations

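The 8 cells with over 30% of reads in mitochondrial genes, apart from the antibody-rich ones, read few of these genes. They had between 3 and 12 of the 32 genes detected (median 4.5), against 6 to 26 (median 15) in the 70 cells outside both sets. The summed genes took a median of 0.145% of their gene reads, against 0.737% in the 70 cells. Their gene reads were also fewer, with a median of 276668 against 1285090, so depth and the mitochondrial share cannot be told apart here.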
